A study of Mus musculus with 8 samples.

Results

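Aggrecan (Acan) and 9 further genes of cartilage were followed in mouse osteoblast progenitors cultured with or without LAMZ. They comprised the regulators Sox9, Sox5 and Sox6, the link protein gene Hapln1, and the matrix protein genes Comp, Chad, Matn2, Matn3 and Matn4. These 10 of the 51822 gene symbols were chosen as a cartilage set because the level of Acan in these libraries was far higher with LAMZ than without it. The difference between LAMZ-treated and control cells is therefore given for them as a description, without a test, whereas their change with time in culture was tested.

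RNA sequencing had been done on 8 libraries, with 2 in each of 4 groups: day 7 control, day 7 LAMZ, day 14 control and day 14 LAMZ. LAMZ (locamidazole) is a compound that the study tested for effects on muscle and bone. All cells were in α-MEM with serum, ascorbic acid, dexamethasone and β-glycerophosphate, a medium that drives osteoblast differentiation, with LAMZ at 1 μmol per liter or the DMSO vehicle alone. The sample labels give the cells as MC3T3-E1, a clonal line from mouse calvaria, whereas the methods describe cultured calvarial cells, which come from the skull bones of neonatal mice and are a mixture. No genetic change is stated for any group, and whether the 2 libraries of a group came from separate cultures is not stated, so p-values measure only the spread between these libraries, which may be technical. The deposited unit was RPKM, the number of reads of a gene scaled to its length and to the mapped reads of its library, and the libraries held an estimated 3463517 to 5832217 mapped reads. Of the 10 genes, 9 reached an RPKM of 1 in at least 2 libraries and were tested with 12514 genes in all. Sox5 did not reach this level in any library, and Matn3 reached it only in the 4 LAMZ libraries.

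In cartilage, SOX9 is the transcription factor that commits cells to the chondrocyte fate, and SOX5 and SOX6 assist it in switching on the genes of the matrix. Aggrecan is a large proteoglycan whose chondroitin sulfate chains hold water and give the tissue its resistance to compression, and the link protein HAPLN1 fixes aggrecan to hyaluronan. COMP, chondroadherin (CHAD) and the matrilins bind collagens and proteoglycans to each other. Several of these genes are also used outside cartilage, COMP in tendon and the matrilins MATN2 and MATN4 in a range of connective tissues.

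Promoter sequences of 4 genes are shown, since 3 of them (Acan, Hapln1 and Matn3) were the members with the largest differences between LAMZ-treated and control cells at day 7, and the fourth (Chad) held a TATA box just before its start. Each is 300 bases on the forward strand of GRCm38.p6, from 250 bases before to 50 bases after the start of the gene in RefSeq, which need not be the start used in these cells. Capitals mark a match to a searched motif. The windows are chr7:79052976-79053275 for Acan, chr13:89540386-89540685 for Hapln1, chr12:8947679-8947978 for Matn3 and chr11:94564797-94565096 for Chad.
Acan: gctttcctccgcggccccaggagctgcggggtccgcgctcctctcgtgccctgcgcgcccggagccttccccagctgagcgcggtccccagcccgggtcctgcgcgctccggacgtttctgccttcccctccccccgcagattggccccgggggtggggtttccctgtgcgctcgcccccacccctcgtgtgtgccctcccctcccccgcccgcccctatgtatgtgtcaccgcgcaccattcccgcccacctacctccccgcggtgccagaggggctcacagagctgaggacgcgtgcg
Hapln1: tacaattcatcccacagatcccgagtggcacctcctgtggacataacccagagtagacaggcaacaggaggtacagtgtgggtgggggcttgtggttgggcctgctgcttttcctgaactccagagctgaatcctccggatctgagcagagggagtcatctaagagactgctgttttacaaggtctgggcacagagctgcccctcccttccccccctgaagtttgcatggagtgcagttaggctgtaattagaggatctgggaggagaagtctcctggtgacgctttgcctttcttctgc
Matn3: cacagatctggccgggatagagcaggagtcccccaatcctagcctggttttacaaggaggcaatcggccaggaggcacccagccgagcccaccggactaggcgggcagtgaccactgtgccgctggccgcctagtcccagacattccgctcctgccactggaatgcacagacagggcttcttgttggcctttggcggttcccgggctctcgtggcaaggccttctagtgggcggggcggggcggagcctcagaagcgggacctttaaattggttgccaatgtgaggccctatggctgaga
Chad: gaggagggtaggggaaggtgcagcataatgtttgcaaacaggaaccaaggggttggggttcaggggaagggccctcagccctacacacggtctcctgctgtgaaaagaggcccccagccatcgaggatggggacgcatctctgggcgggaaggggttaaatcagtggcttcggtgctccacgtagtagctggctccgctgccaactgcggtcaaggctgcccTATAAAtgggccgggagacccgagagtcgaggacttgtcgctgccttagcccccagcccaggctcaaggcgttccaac
The motifs searched on both strands were the SOX core sequences ACAAAG and ACAATG, the TATA box TATAAA, the CREB core TGACGTCA and the E-box CACGTG, which do not overlap one another. RefSeq entries were found for 7 of the 10 genes, with 13 promoters in all. None of the 5 motifs occurred in the windows of Acan, Hapln1, Matn3 or Matn4. Chad held TATAAA, which began 28 bases before the start and is present in 13.6% of all 32851 promoters of this length. The single Sox5 window held ACAATG, found in 12.6% of all promoters. Of the 6 Sox6 windows, 5 held ACAAAG, found in 18.7% of all promoters, 2 held ACAATG and 2 held TATAAA. The E-box and the CREB core, in 7.15% and 1.79% of all promoters, did not occur in any of the 13 windows. The Acan promoter was 74.0% G and C, more than in 95.2% of all promoters, for which the median was 52.7%. By contrast, the Hapln1 window was at 54.3%.

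**Figure D1:**
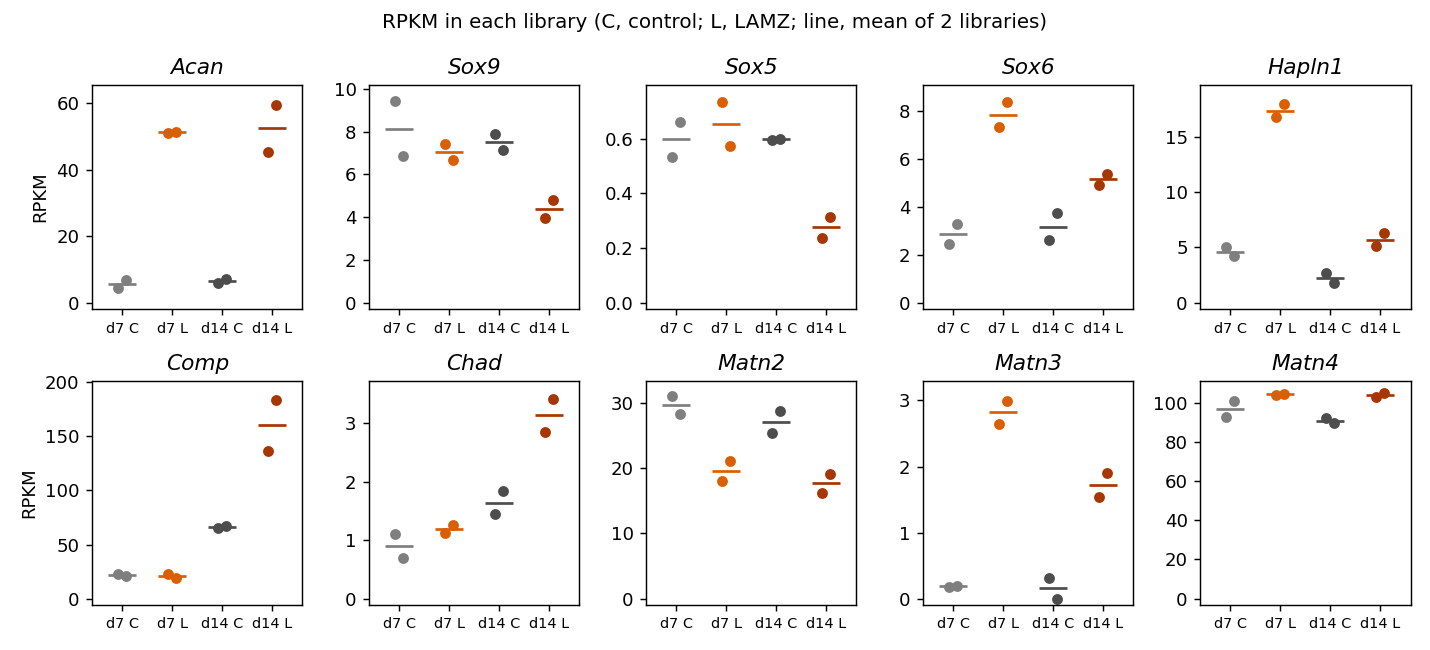
RPKM of the 10 genes in each of the 8 libraries, with 1 panel per gene on its own axis; points are libraries and lines are the means of the 2 libraries of a group. Acan, Hapln1, Sox6 and Matn3 sit higher in the LAMZ libraries on both days, Comp and Chad are highest in day 14 LAMZ libraries, and Matn4 stays between 89.6 and 105.1.

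The level of the 10 genes spanned a wide range, which RPKM allows to be compared between genes because it is scaled to length. Matn4 was the highest in both control groups and at day 7 with LAMZ. In day 7 control cells the order by mean RPKM was Matn4, Matn2, Comp, Sox9, Acan, Hapln1, Sox6, Chad, Sox5 and Matn3, from 96.8 down to 0.184. The values of Sox9, Acan and Hapln1 overlapped between neighbors in this order. In day 7 LAMZ cells Acan was second at 51.3, above Comp and Matn2, whose libraries overlapped. In day 14 LAMZ cells Comp was first at 160.3, followed by Matn4 at 104.0 and Acan at 52.6, with no overlap between these neighbors.

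Acan, on chromosome 7 from 79053483 to 79115099 (GENCODE annotation of GRCm38), had RPKM values of 4.37 and 6.88 in day 7 control libraries and 51.0 and 51.5 in day 7 LAMZ libraries. At day 14 the values were 5.83 and 7.17 in control libraries and 45.5 and 59.6 in LAMZ libraries. The 4 LAMZ libraries were all above the 4 control libraries, and the 2 days overlapped within each condition. The mean was 9.11-fold higher with LAMZ at day 7 and 8.09-fold higher at day 14, or a difference in log2(RPKM + 1) of 3.01 and 2.83 with a standard error of 0.21. These values rest on an estimated 123 to 242 reads in each control library and 1625 to 2175 in each LAMZ library. By rank of mean RPKM, Acan moved from place 5367 of the 12514 tested genes to place 593 at day 7, and from place 4622 to place 555 at day 14.

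Hapln1, whose protein ties aggrecan to hyaluronan, is on chromosome 13 from 89539796 to 89611652. The RPKM of Hapln1 was 5.04 and 4.23 in day 7 control libraries, 16.8 and 17.9 in day 7 LAMZ libraries, 2.65 and 1.79 in day 14 control libraries, and 5.16 and 6.28 in day 14 LAMZ libraries. On each day both LAMZ libraries were above both control libraries, by 3.75-fold in the mean at day 7 and 2.57-fold at day 14, yet the day 14 LAMZ libraries were lower than those of day 7. The log2 difference was 1.71 at day 7 and 1.07 at day 14 (standard error 0.16).

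Among the matrilins, adaptor proteins of the matrix, Matn3 and Matn2 lay on opposite sides. Matn3 (chromosome 12, 8947929 to 8972028), a matrilin found mainly in growth cartilage, had RPKM values of 0.176 and 0.192 in day 7 control libraries, 2.65 and 2.99 in day 7 LAMZ libraries, 0.309 and 0 in day 14 control libraries, and 1.54 and 1.90 in day 14 LAMZ libraries. The control values stand for 2, 2, 5 and 0 reads, so the ratio of LAMZ to control rests on little: 15.5 at day 7 (95% counting interval 5.81 to 58.1) and 10.2 at day 14 (4.10 to 32.5). These intervals cover counting error only, because PCR reads are not independent molecules.

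Matn2 (chromosome 15, 34306677 to 34436273), a matrilin of many connective tissues, had 31.1 and 28.4 RPKM in day 7 control libraries and 18.0 and 21.2 in day 7 LAMZ libraries. At day 14 it had 25.4 and 28.7 in control libraries and 16.3 and 19.1 in LAMZ libraries. The LAMZ libraries were below the control libraries on both days, by 1.52-fold at day 7 and 1.53-fold at day 14, or log2 differences of -0.58 and -0.59 (standard error 0.14). Matn4 (chromosome 2, 164389393 to 164405160), the most abundant matrilin of the set, had 92.8 and 100.8 RPKM in day 7 control libraries and 104.0 and 104.5 in day 7 LAMZ libraries. At day 14 it had 91.9 and 89.6 in control libraries and 102.9 and 105.1 in LAMZ libraries. The groups did not overlap on either day, but the gap was small, with a log2 difference of 0.11 at day 7 and 0.19 at day 14 (standard error 0.11). This direction turned when the libraries were rescaled to the same sum of RPKM, to -0.20 and -0.17. That rescaling also moved the median log2 difference of all tested genes to -0.31 and -0.43, relative to which Matn4 was at 0.12 and 0.27. Centring on the library median gave 0.22 and 0.38, with Matn4 called higher at day 14, and quantile normalization gave -0.02 and 0.04. Matn2 and Matn4 overlap genes on the other strand (9430069I07Rik and Rbpjl), and no strand was stated for the counting.

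The regulators did not share a pattern. Sox9, on chromosome 11 from 112782224 to 112787760, had RPKM values of 9.43 and 6.84 in day 7 control libraries, 7.43 and 6.68 in day 7 LAMZ libraries, 7.88 and 7.17 in day 14 control libraries, and 3.98 and 4.80 in day 14 LAMZ libraries. The groups overlapped at day 7 (log2 difference -0.17), whereas at day 14 both LAMZ libraries were lower (log2 difference -0.66, standard error 0.16, a mean 1.71-fold lower). In the LAMZ libraries, in which Acan was highest, no value of Sox9 exceeded the higher control value of the same day.

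Sox6, a partner of SOX9 that lacks an activation domain of its own, lies on chromosome 7 from 115470872 to 116038796. It had 2.46 and 3.30 RPKM in day 7 control libraries, 7.32 and 8.37 in day 7 LAMZ libraries, 2.63 and 3.74 in day 14 control libraries, and 4.92 and 5.39 in day 14 LAMZ libraries. Both LAMZ libraries were above both control libraries on each day, by 2.73-fold and 1.62-fold in the mean, with log2 differences of 1.20 and 0.57 (standard error 0.17). Sox5 (chromosome 6, 143828425 to 144781977), the close relative of Sox6, was far lower, at 0.535 and 0.663 RPKM in day 7 control libraries, 0.734 and 0.574 in day 7 LAMZ libraries, 0.596 and 0.600 in day 14 control libraries, and 0.239 and 0.313 in day 14 LAMZ libraries. The ratio of its pooled reads, 42 with LAMZ against 85 in control libraries at day 14, was 0.456 (95% counting interval 0.307 to 0.668), and at day 7 it was 1.08 (0.774 to 1.53). In both Sox5 and Sox6, antisense genes lie within the gene, and their reads cannot be told apart without strand.

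Comp and Chad were highest in day 14 LAMZ libraries. Comp (chromosome 8, 70373558 to 70382066), a thrombospondin family protein of cartilage and tendon, had 22.4 and 20.8 RPKM in day 7 control libraries and 23.0 and 19.2 in day 7 LAMZ libraries, which overlapped. At day 14 it had 65.0 and 67.1 in control libraries and 136.8 and 183.7 in LAMZ libraries, a 2.43-fold higher mean with LAMZ and a log2 difference of 1.25 (standard error 0.16). Chad (chromosome 11, 94565047 to 94569127), a leucine-rich protein that binds collagen, had 1.11 and 0.687 RPKM in day 7 control libraries, 1.12 and 1.26 in day 7 LAMZ libraries, 1.44 and 1.84 in day 14 control libraries, and 2.86 and 3.41 in day 14 LAMZ libraries. Each Chad value rests on 4 to 28 reads, and the gene overlaps Acsf2 on the other strand. The log2 difference of Chad was 0.21 at day 7 and 0.65 at day 14 (standard error 0.18).

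**Figure D2:**
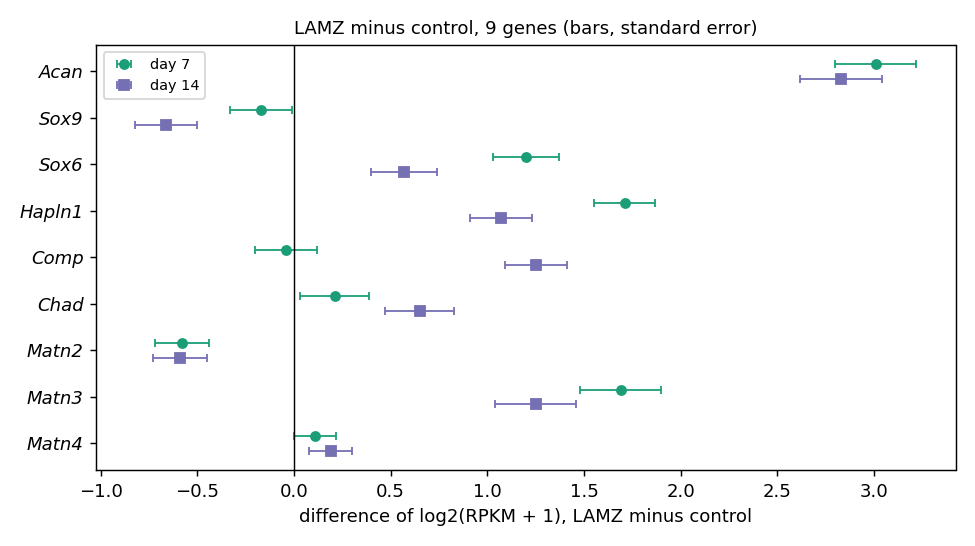
Difference in log2(RPKM + 1) between LAMZ-treated and control cells for the 9 genes with enough reads, at day 7 (circles) and day 14 (squares); bars are standard errors from the fit. Acan stands near 3 on both days, Hapln1, Sox6 and Matn3 lie above 0 on both days, Comp is near 0 at day 7 (-0.04) and at 1.25 at day 14, a change between the days that did not pass the test (adjusted p = 0.0579 from limma), and Matn2 lies below 0 on both days (-0.58 and -0.59).

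With the test that was applied to all genes, 4 of the 9 were called higher with LAMZ at day 7 (Acan, Sox6, Hapln1 and Matn3) and 1 lower (Matn2), where 4.35% and 8.49% of the 12514 tested genes were called higher and lower. At day 14, 6 were called higher, with Comp and Chad joining these 4, and 2 lower (Matn2 and Sox9), where 6.96% and 16.0% of all tested genes were called. The genes were chosen on this contrast, so nothing is read from these counts. The day 14 count of 8 fell to between 4 and 5 when any library of day 14 was left out, among which Sox9, Sox6, Chad and Matn2 lost a call in at least 1 case. The scaling between libraries also bears on them. The median log2 difference of all tested genes was -0.08 at day 7 and -0.15 at day 14, and rescaling the libraries to the same sum moved it to -0.31 and -0.43. Relative to that median, the difference of Acan was 3.09 as deposited and 3.03 after rescaling at day 7, and that of Sox9 at day 14 was -0.52 and -0.55. The day 14 call of Sox9 was nevertheless lost with centring on the library median, with quantile normalization and with no filter on low values. Centring also took the day 14 call of Matn2 and gave Matn4 a call, and rescaling took those of Sox6 and Chad. The split of all called genes moved from 544 higher and 1063 lower at day 7 to 308 and 3271 after rescaling, and to 857 and 745 after centring on the library median. At day 14 it was 871 and 2007 as deposited, 474 and 5421 after rescaling and 1608 and 1249 after centring.

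The change from day 7 to day 14 was not used to choose the genes and was tested with limma in a fit across all 12514 genes. In control cells, Comp rose 3.05-fold, from a mean of 21.6 RPKM to 66.0 (log2 difference 1.57, 95% confidence interval 1.20 to 1.94, adjusted p = 0.00553 from limma). Hapln1 fell 2.08-fold, from 4.63 to 2.22 (log2 difference -0.81, adjusted p = 0.0367 from limma). Of the 9 genes, these were the 1 called higher and the 1 called lower, against 2.46% and 2.40% of all tested genes. The call of Hapln1 was lost when any 1 of the 8 libraries was left out, with an adjusted p of up to 0.140 over the alternatives, so that 1 gene, Comp, was then left. Acan differed by 0.20 (interval -0.28 to 0.68, adjusted p = 0.632 from limma), and Sox9 by -0.09 (adjusted p = 0.805 from limma).

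In LAMZ-treated cells, Comp rose 7.59-fold, from 21.1 to 160.3 RPKM (log2 difference 2.86, interval 2.49 to 3.23, adjusted p = 2.90e-04 from limma). Chad rose 2.64-fold (log2 difference 0.92, adjusted p = 0.0143 from limma), and Hapln1 fell 3.04-fold (log2 difference -1.45, adjusted p = 0.00186 from limma). These 2 rises and 1 fall stood against 5.10% and 9.26% of all tested genes. The call of Chad was lost without any 1 of the 4 LAMZ libraries, with an adjusted p of up to 0.112. In Acan the difference between the days was 0.02, with an interval from -0.46 to 0.50 (adjusted p = 0.961 from limma), so that changes within this interval were not detectable with these libraries. Sox9 and Sox6 were lower at day 14 by 0.58 and 0.52 on the log2 scale but did not pass the threshold (adjusted p = 0.0509 and 0.0802 from limma). For Sox9, 4 of the 17 alternatives passed the threshold, and for Sox6, 1 did. For Matn2, Matn3 and Matn4, neither change with time passed, with adjusted p from 0.145 to 0.991.

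**Figure D3:**
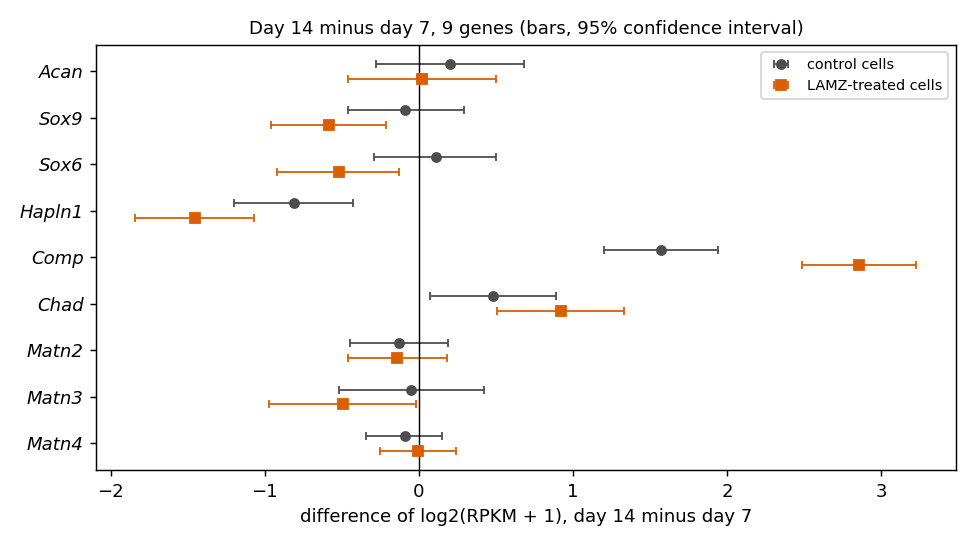
Difference in log2(RPKM + 1) between day 14 and day 7 in control cells (circles) and LAMZ-treated cells (squares) for the 9 genes; bars are 95% confidence intervals. The intervals of Comp lie above 0 in both conditions (1.57 and 2.86), those of Hapln1 lie below 0 (-0.81 and -1.45), and those of Acan cover 0.

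Whether the difference with LAMZ itself changed between the days was tested as an interaction. Of the 9 genes, 3 had an unadjusted p under 0.05 in limma. The share of all tested genes at that unadjusted level was not computed, so nothing is read from this count. After adjustment none of the 9 passed, where 0.312% of all tested genes were called higher and 0.312% lower. The nearest was Comp, whose difference with LAMZ was larger at day 14 than at day 7 by 1.29 on the log2 scale (standard error 0.23, adjusted p = 0.0579 from limma). Over the 17 alternatives, the adjusted p of Comp ranged from 0.0341 to 0.200, and it passed the threshold in 3. Hapln1 and Sox6 had differences of -0.64 and -0.63 (adjusted p = 0.235 and 0.261 from limma). For Acan the value was -0.18, with an interval from -0.85 to 0.50 (adjusted p = 0.812 from limma).

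Other genes of cartilage were taken from 6 lists with 82 genes, of which 81 were matched to a symbol and 69 could be tested. With LAMZ, 20 were higher and 5 lower at day 7, and 21 were higher and 15 lower at day 14. In percent of the 69 genes these were 29.0% and 7.25% at day 7 and 30.4% and 21.7% at day 14, beside 4.35% and 8.49%, and 6.96% and 16.0%, of all tested genes. Among those called are 4 that passed the filter through 1 side alone, Matn1 and Hapln4 through LAMZ libraries and Has1 and Mmp3 through control libraries. Their pass already rested on the difference, so their calls are no support, here or in the counts of their lists. Sox8 and Gdf5 also passed through LAMZ libraries alone and were not called on either day. The lists were written with earlier results of these data known, and most genes named from them were picked by this same contrast. The counts and p-values of the list genes thus describe these libraries and are no independent support. The median log2 difference of the 69 genes was 0.22 and 0.08, beside -0.08 and -0.15 in all tested genes. The count at day 7 fell from 25 to 13 without either day 7 LAMZ library, and that at day 14 fell from 36 to 23 without the second day 14 LAMZ library. The split into higher and lower depended on the scaling. With library sums made equal, 13 were higher and 12 lower at day 7 and 17 and 26 at day 14, of 68 tested. Of all 12698 genes tested with that scaling, 308 were called higher and 3271 lower at day 7, and 474 and 5421 at day 14. Centring on the library median gave 23 and 4 at day 7 and 29 and 8 at day 14. Of all 12514 tested genes, it called 857 higher and 745 lower at day 7, and 1608 and 1249 at day 14. Each difference of a gene named from these lists that passed the threshold kept its direction in every alternative in which it was tested.

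Of the 8 collagen genes of cartilage, 4 rose at day 7 and 6 at day 14, where 4.35% and 6.96% of all tested genes did. None fell, 3 to 4 rose at day 7 and 5 to 6 at day 14 over the other scalings, and the median log2 difference was 0.81 and 0.97. Of all tested genes, those scalings called 308 to 857 higher at day 7 and 474 to 1608 at day 14. Col2a1, which encodes the main collagen of cartilage, had 211.0 and 139.0 RPKM in day 7 control libraries, 344.3 and 366.6 in day 7 LAMZ libraries, 72.8 and 82.9 in day 14 control libraries, and 241.6 and 237.9 in day 14 LAMZ libraries. It was present in every library, and the LAMZ libraries were higher on both days, by 2.03-fold at day 7 (adjusted p = 0.0112 from limma) and 3.08-fold at day 14 (adjusted p = 9.28e-04 from limma). The day 7 call of Col2a1 was lost without either day 7 LAMZ library. Col9a1, a chain of the collagen that coats type II fibrils, rose 5.20-fold at day 7 (adjusted p = 8.84e-05 from limma) and 4.32-fold at day 14 (adjusted p = 6.92e-05 from limma). Col9a3, another chain of that collagen, rose 3.09-fold at day 14 (adjusted p = 0.00717 from limma), and at day 7 the difference of 0.91 on the log2 scale did not pass (adjusted p = 0.0705 from limma). It passed with the replicate block (0.0460), the stricter filter (0.0457) and without the first day 7 control library (0.0204).

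Of 18 further chondrocyte regulators, 13 could be tested, of which 7 rose at day 7 and 7 at day 14 and none fell, beside 4.35% and 6.96% of all tested genes that rose. At day 14, 10 were higher after centring or quantile normalization, beside 1608 and 1280 of all 12514 tested genes. When library sums were made equal, 6 were higher and 1 lower, beside 474 and 5421 of all 12698 genes tested with that scaling. Pth1r, the receptor for parathyroid hormone and its related peptide, which osteoblasts also carry, rose from a mean of 50.0 to 121.4 RPKM at day 7 and from 68.7 to 231.4 at day 14 (adjusted p = 0.00428 and 5.01e-04 from limma). Ihh, the hedgehog ligand of prehypertrophic chondrocytes, rose from 1.77 to 8.66 RPKM at day 7 (adjusted p = 0.00224 from limma) and from 1.27 to 3.70 at day 14 (adjusted p = 0.0115 from limma). The day 14 call of Ihh was lost without the first control or the second LAMZ library of that day. Ucma, a small secreted protein of growth cartilage, rose from 1.74 to 7.78 and from 0.797 to 3.68 RPKM (adjusted p = 0.00824 and 0.0140 from limma), with 3 to 7 reads in each control library. Its call was lost without the first LAMZ library at day 7, and at day 14 without either control or the first LAMZ library.

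The relatives and partners of aggrecan, such as its link proteins and the makers of hyaluronan, were split. Of 11 genes, 6 could be tested, of which 1 was called higher on each day (Hapln4), where 4.35% and 6.96% of all tested genes were, and 2 were called lower at day 14 (Tnfaip6 and Has1), where 16.0% of all tested genes were. At day 14, 4 were lower when library sums were made equal, beside 5421 of all 12698 genes tested with that scaling. With centring or quantile normalization 1 was lower, beside 1249 and 1394 of all 12514 tested genes. Vcan (versican), the proteoglycan closest to aggrecan in build, had 13.6 and 14.0 RPKM in day 7 control libraries and 15.2 and 15.9 in day 7 LAMZ libraries, and neither this difference nor that at day 14 passed (adjusted p = 0.395 and 0.0514 from limma). Its day 14 values were 7.44 and 8.31 in control libraries and 6.09 and 5.72 in LAMZ libraries. Hapln4, a link protein better known from brain, had 0.811 and 0.809 RPKM in day 7 control libraries, 2.63 and 2.05 in day 7 LAMZ libraries, 0.427 and 0.620 in day 14 control libraries, and 3.45 and 2.66 in day 14 LAMZ libraries. It passed the filter only through its LAMZ libraries, where it was high, so its call is no support and no p is given. Tnfaip6, which modifies hyaluronan during inflammation, fell 2.90-fold at day 14 (adjusted p = 0.00442 from limma). Has1, a hyaluronan synthase, was at 39 and 19 reads in day 14 control libraries and at 4 reads in each day 14 LAMZ library. It passed the filter only through control libraries, so no p is given.

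Of 12 other matrix proteins and thrombospondins, 11 could be tested, of which 3 were called higher at day 7, and at day 14 there were 2 called higher and 4 that fell, beside 4.35%, 6.96% and 16.0% of all tested genes. At day 7, 1 was higher when library sums were made equal and 5 after centring, beside 308 of all 12698 and 857 of all 12514 tested genes. At day 14 centring gave 3 higher and 3 lower, beside 1608 and 1249 of all tested genes. Matn1, the matrilin most restricted to cartilage, was at 1, 2, 1 and 0 reads in the control libraries and 57 to 89 reads in the LAMZ libraries. The ratio of reads was 31.0 at day 7 (95% counting interval 10.4 to 152.6) and 136.6 at day 14 (24.1 to 5432.3), and no p is given because, like Matn3, it passed the filter only through its LAMZ libraries, where it was high. Cilp, a protein of the middle zone of articular cartilage, was at 18.8 and 24.1 RPKM in day 14 control libraries and 5.61 and 6.12 in day 14 LAMZ libraries (adjusted p = 5.01e-04 from limma). Thbs4, a relative of Comp known from tendon, was at 12.3 and 10.3 against 3.65 and 2.93 (adjusted p = 2.57e-04 from limma). At day 14 Comp and Thbs4 thus lay on opposite sides of their controls, and both rose with time in control cells, Thbs4 by 3.73-fold (adjusted p = 0.00299 from limma).

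Of the enzymes that build the chondroitin sulfate chains of aggrecan, 20 could be tested. At day 7, 5 rose and 1 fell, beside 4.35% and 8.49% of all tested genes, and at day 14, 4 rose and 3 fell, beside 6.96% and 16.0%. This balance turned with the scaling, to 2 higher and 7 lower on either day after rescaling to the same sum. Of all 12698 genes tested with that rescaling, 308 were higher and 3271 lower at day 7, and 474 and 5421 at day 14. Centring gave 8 higher and 1 lower at day 14, beside 1608 and 1249 of all 12514 tested genes. Xylt1, the xylosyltransferase that starts the chain, rose 2.94-fold at day 7 and 2.74-fold at day 14 (adjusted p = 0.00296 and 0.00212 from limma). Chst11, which adds sulfate to the chain, rose 3.34-fold at day 7 (adjusted p = 0.00102 from limma), whereas at day 14 the difference of 0.34 on the log2 scale did not pass (adjusted p = 0.106 from limma). Csgalnact1, which adds the first N-acetylgalactosamine, fell 2.60-fold at day 7 and 2.87-fold at day 14 (adjusted p = 0.00777 and 0.00317 from limma), with the day 7 call lost without the second day 7 LAMZ library.

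Of the proteases that cut aggrecan and COMP and their inhibitor Timp3, 11 genes could be tested. At day 7 none rose and 4 fell (Timp3 and 3 proteases), and at day 14, 1 rose and 6 proteases were called lower, where 8.49% and 16.0% of all tested genes fell. Over the other scalings 3 to 9 were lower at day 14. The 9 came with equal library sums, where 5421 of all 12698 tested genes were called lower, and the 3 with centring, where 1249 of 12514 were. Adamts5, the main aggrecanase of mouse cartilage, had 36.5 and 32.8 RPKM in day 7 control libraries, 7.80 and 7.83 in day 7 LAMZ libraries, 34.0 and 31.6 in day 14 control libraries, and 7.99 and 5.85 in day 14 LAMZ libraries. All LAMZ libraries were below all control libraries, by 4.44-fold at day 7 and 4.74-fold at day 14 (adjusted p = 2.22e-04 and 8.01e-05 from limma). Adamts1, a related protease, fell 3.10-fold at day 7 and 1.57-fold at day 14 (adjusted p = 7.29e-04 and 0.0209 from limma), and the day 14 call was lost without any 1 library of that day. Timp3, which inhibits the aggrecanases, had 72.1 and 61.5 RPKM in day 7 control libraries and 28.1 and 29.4 in day 7 LAMZ libraries (adjusted p = 0.00143 from limma). At day 14 it had 73.6 and 79.5 in control libraries and 81.1 and 68.6 in LAMZ libraries, which overlapped. The 1 gene that rose at day 14 was Mmp13, a collagenase of hypertrophic chondrocytes and of osteoblasts, which rose 2.38-fold (adjusted p = 0.00520 from limma).

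**Figure D4:**
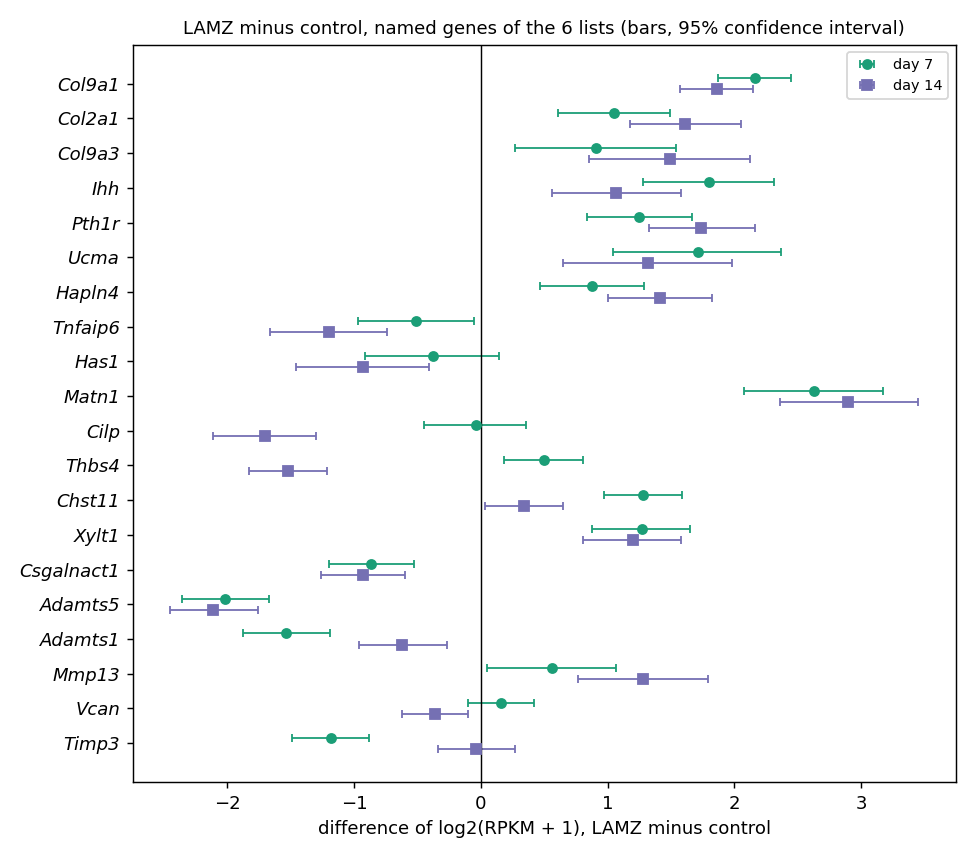
Difference in log2(RPKM + 1) between LAMZ-treated and control cells for the 20 named genes of the 6 lists, at day 7 (circles) and day 14 (squares); bars are 95% confidence intervals. Collagens, chondrocyte regulators and Matn1 lie to the right of 0, Adamts5 (-2.02 and -2.11) and Csgalnact1 lie to the left on both days, and the day 14 intervals of Cilp and Thbs4 lie to the left, while that of Cilp at day 7 covers 0.

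The genes whose course over the 8 libraries was most like that of Acan were found by the root mean square difference between centred log2(RPKM + 1) values. They were Matn1 (0.231), the citrate transporter gene Slc13a5 (0.300), the tenascin gene Tnn (0.487), the bone matrix phosphoprotein gene Dmp1 (0.536) and the alkaline phosphatase gene Alpl (0.543). No other of the 10 genes was among these 5. The place of Matn1 depends on the 1 added before the log2, since its control libraries held 1, 2, 1 and 0 reads. In mean RPKM, Matn1 was 30.7-fold higher with LAMZ at day 7 and 152.2-fold at day 14, against 9.11-fold and 8.09-fold for Acan. Slc13a5 had 11.7 and 17.2 RPKM in day 7 control libraries and 86.1 and 77.8 in day 7 LAMZ libraries. At day 14 Slc13a5 had 14.9 and 15.2 in control libraries and 79.1 and 78.2 in LAMZ libraries, which like those of Acan overlapped between the days. This likeness is a description over libraries that fall into a high and a low cluster.

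Marker genes of several cell types were set beside these values. The 8 osteoblast markers were all present in every group, with a summed RPKM of 7171 to 10715 in control libraries and 10265 to 18124 in LAMZ libraries. Of the 8 chondrocyte markers, 7 were matched, and their sum, which is dominated by Col2a1, was 149.0 to 279.4 in control libraries and 380.6 to 513.7 in LAMZ libraries. The chondrocyte list shares Col2a1, Col9a1, Col9a3, Matn1 and Ucma with the genes above. In bulk RNA, fewer cells of a type and less RNA per cell cannot be told apart.

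Markers of other cell types moved with LAMZ as well. All 8 macrophage markers were called lower on both days in limma, where 8.49% and 16.0% of all tested genes were. Their sums were 440.7 to 565.0 in day 7 and 1043 to 1094 in day 14 control libraries. In LAMZ libraries the sums were 6.96 to 8.98, and C1qa, C1qb, C1qc and Tyrobp were listed at 0. Only 1 of the 8 reached an RPKM of 1 in day 7 LAMZ libraries, and 2 did in day 14 LAMZ libraries. Most of the 8 thus passed the filter through control libraries alone, so those calls are no support. The sum of the 6 adipocyte markers was 30.7 to 110.3 in control libraries and 8.63 to 12.2 in LAMZ libraries. Of the 5 tested genes, 2 were lower at day 7 and 4 at day 14, beside 8.49% and 16.0% of all tested genes. In LAMZ libraries 3 of the 6 reached an RPKM of 1 on each day. Some may thus have passed the filter through control libraries alone, with calls that are then no support. The sum of the 4 tenocyte markers, which include Thbs4, was 142.6 to 205.3 in control libraries. With LAMZ it was 110.2 to 122.4 at day 7 and 55.1 to 80.3 at day 14. At day 14, 2 of the 4 were lower, beside 16.0% of all tested genes. The 5 skeletal muscle markers summed to 1.92 to 5.83 in control libraries. With LAMZ their sum was 3.49 to 5.43 at day 7, within the control range, and 24.9 to 29.7 at day 14. Only 2 of the 5 reached an RPKM of 1 in day 14 LAMZ libraries. Acta1 and Des were the 2 that could be tested, so the rise is not one of the whole list. The 4 endothelial markers summed to at most 1.20 in any library. The part of these other cell types in the values of the 10 genes was not tested.

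**Figure D5:**
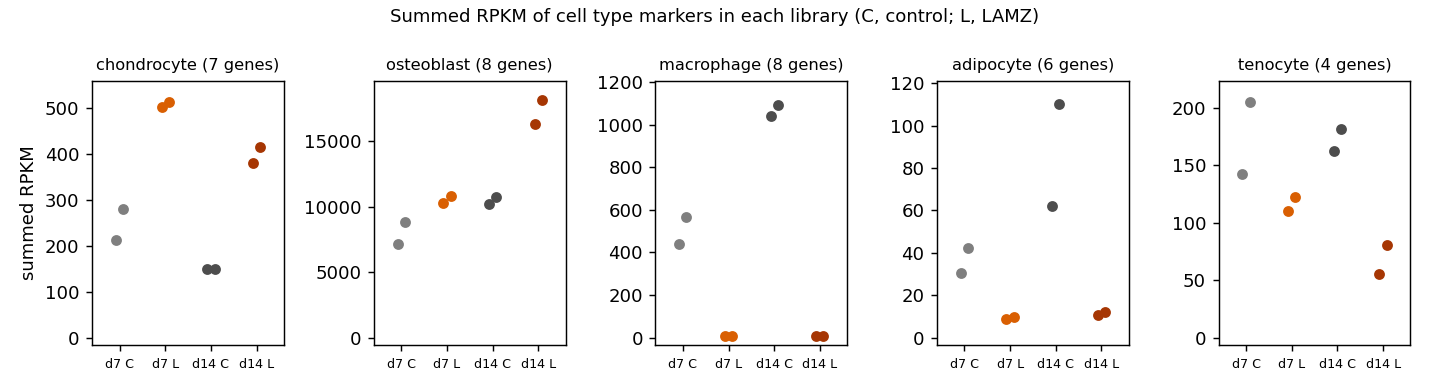
Summed RPKM of the markers of 5 cell types in each of the 8 libraries, with 1 panel per cell type on its own axis; each point is a library. The chondrocyte and osteoblast sums are higher with LAMZ on each day, while the macrophage sums fall from at least 440.7 in control libraries to at most 8.98 in LAMZ libraries.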

How the data were processed

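RNA for 8 libraries was sequenced by the authors on an Ion Proton and assigned to genes with CLC Genomics Workbench, and they deposited RPKM per gene symbol for each library. The version of that program and the strand setting were not given in the sources used here, and the submitters' processing notes name mm10. Groups were taken from the sample labels, also for the first day 7 LAMZ library, whose column header names a code in place of the treatment, and no column of per-sample values was left out. Of 51826 entries, 4 with repeated symbols resembling dates were dropped. Positions and exon lengths came from GENCODE for GRCm38, which matched 47465 symbols, and the promoters from RefSeq.

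Mapped reads were recovered as the number at which low values of single-exon genes became whole reads within 0.1, which held for 93.8% to 96.1% of the values checked. Genes that had other lengths in the authors' annotation (Sox6, Hapln1, Matn2 and Matn4) have approximate read numbers. At this depth a gene near an RPKM of 1 has few reads, and intervals of read ratios, from the exact binomial (Clopper-Pearson) method, cover counting error only.

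Tests were run on the 12514 genes that reached an RPKM of 1 in 2 or more libraries, after a log2(RPKM + 1) transformation, which understates changes of low genes. The model, from lmFit and eBayes (trend on) of limma 3.58.1 in R 4.3.3, had 4 group means and 4 residual degrees of freedom, and its tests were two-sided. Benjamini-Hochberg adjustment covered all tested genes, and the threshold was 0.05. The scripts were tested on simulated data.

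The 10 genes, the 6 lists and the markers were chosen with earlier results of these data known, and no p was adjusted over a list alone. The text names all 10 genes and, per list, up to 3 genes past the threshold on either day with the largest differences and no overlap between LAMZ and control libraries on that day. Col2a1, Matn1 and Vcan are named in any case, as are the 5 genes nearest to Acan. Timp3, Mmp3 and genes listed with a count were named after their values were seen.

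The labels number replicates 1 and 2 in every group. Deviations of same-numbered libraries from their group means correlated at -0.0342 to 0.0620, so the numbers were not used as pairs. The 17 alternatives were pseudocounts of 0.1 and 5, no filter and a stricter filter, 3 scalings between libraries, a replicate block, no trend, and leaving out each of the 8 libraries.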

Additional observations from a re-analysis of the deposited data

Results flagged for a closer look

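In the matrix genes Cilp and Thbs4 and the inhibitor gene Timp3, the difference between LAMZ-treated and control cells itself differed between the days, by the interaction test in limma. For Cilp it was lower at day 14 than at day 7 by 1.66 on the log2 scale (a value of -1.66, adjusted p = 0.0369 from limma), as the control libraries went from 6.61 and 5.09 RPKM at day 7 to 18.8 and 24.1 at day 14 while the LAMZ libraries were between 4.96 and 6.32 throughout. For Thbs4 the value was -2.02 (adjusted p = 0.0198 from limma). Its control libraries went from 2.98 and 3.07 to 12.3 and 10.3 RPKM, and its LAMZ libraries from 4.70 and 4.67 to 3.65 and 2.93. For Timp3 the value was 1.15 (adjusted p = 0.0496 from limma), with 72.1 and 61.5 RPKM in day 7 control libraries against 28.1 and 29.4 with LAMZ, and 73.6 and 79.5 against 81.1 and 68.6 at day 14. The calls of Cilp and Timp3 were lost without any 1 of the 8 libraries, with an adjusted p of up to 0.145 and 0.175, and that of Thbs4 without any 1 LAMZ or day 14 control library, with an adjusted p of up to 0.0973. In Vcan, both LAMZ libraries were above both control libraries at day 7 and below both at day 14. The interaction value was -0.52, which did not pass the threshold (adjusted p = 0.171 from limma), so a difference between the days was not shown for it.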

How the results depend on the processing

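The count of the 9 tested genes called for LAMZ against control was 4 to 5 at day 7 in all 17 alternatives (5 as reported). At day 14 it was 8 as reported, 5 with no filter, and 4 to 8 when 1 library was left out. For day 14 against day 7 in control cells it was 2 as reported, 1 with no filter, 1 with the replicate block and 1 with any library left out, with Hapln1 the gene lost. In LAMZ-treated cells it was 3 as reported and 2 to 4 otherwise. The interaction count was 0 as reported and 1 (Comp) with a pseudocount of 5, with the stricter filter and with centring on the library median. The listed cartilage genes numbered 25 at day 7 and 13 to 24 with a library left out, and 36 at day 14 and 23 to 37 with a library left out. The samples share only a replicate number, and with 2 numbers a pairing could not be shown. Besides Hapln1, the block took the call of Chad for LAMZ at day 14 and gave Sox6 a call for time in LAMZ-treated cells and Col9a3 a call at day 7. The cause of these changes was not tested beyond the fewer samples or other genes that an alternative holds.

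Values that turned direction were all without a call in the analysis as reported. Cilp at day 7 became 0.07 with centring, 0.07 with quantile normalization, and -0.20 to 0.12 with a library left out (0.10 and 0.12 without a first day 7 library), and Vcan at day 7 became -0.13 with rescaling to the same sum. For time in control cells, rescaling gave 0.14 for Sox9, 0.12 for Matn2 and 0.16 for Matn4, quantile normalization gave 0.01 for Matn4, and leaving out a library gave -0.08 to 0.48 for Acan, -0.29 to 0.12 for Sox9, -0.09 to 0.30 for Sox6 (with -0.05 between) and -0.24 to 0.15 for Matn3. For time in LAMZ-treated cells, rescaling gave 0.05 for Matn2 and 0.19 for Matn4, Matn4 became 0.10 with centring and 0.07 with quantile normalization, and leaving out a library gave -0.02 to 0.01 for Matn4 and -0.17 to 0.21 for Acan. The interaction of Matn2 became 0.002 with a pseudocount of 5, 0.07 with centring and -0.12 to 0.11 with a library left out, and that of Acan was -0.45 to 0.10 with a library left out. Timp3 at day 14 became 0.15 with centring, was -0.16 to 0.08 with a library left out (0.02 between), and was called lower with rescaling to the same sum (-0.40, adjusted p = 0.0367 from limma). The median of all tested genes was -0.43 with that rescaling, relative to which Timp3 was at 0.04, and 5421 of the 12698 tested genes were called lower. Among the called list genes, Adamts1 at day 14 was also lost with centring and Ucma at day 14 with no filter, and the interaction calls of Cilp and Timp3 were lost with the block, with no filter, with a pseudocount of 0.1 and with no trend, and that of Thbs4 with no filter. With 3463517 to 5832217 mapped reads, Matn3, Matn1, Chad and Sox5 were limited by reads.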
